A study of Mus musculus with 95 samples.

Results

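Glutathione S-transferases and UDP-glucuronosyltransferases make foreign and endogenous compounds soluble for excretion. The first family joins glutathione to reactive molecules, and the second transfers glucuronic acid, or another sugar, from a UDP-sugar to bilirubin, steroids and drugs. The proximal tubule of the kidney expresses many of these enzymes and exports their products into urine. Microsomal glutathione S-transferases are membrane proteins of separate origin that also handle lipid peroxides.

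The genes described were all those whose probe set carried a single symbol of the Gst, Mgst or Ugt families. Such probe sets numbered 43 and represented 31 genes, of 17097 genes with a probe set of a single symbol. A gene with several probe sets, as 10 had, was represented by the brightest one on average, whatever the group. There were 19 glutathione S-transferase genes and 12 Ugt genes, most of them UDP-glucuronosyltransferases. By class, these were 2 alpha (Gsta), 1 kappa (Gstk), 7 mu (Gstm), 1 omega (Gsto), 2 pi (Gstp), 3 theta (Gstt) and 3 microsomal (Mgst) genes, followed by 2 Ugt1, 7 Ugt2, 2 Ugt3 and 1 Ugt8 genes.

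Kidney RNA came from female SNF1 mice, the first generation offspring of SWR and NZB parents, which develop lupus nephritis spontaneously with age. Mice received an intraperitoneal injection of pristane, a hydrocarbon oil, at 9 weeks of age, or were left untreated as age-matched controls, with no control oil injected. Untreated mice were sampled at weeks 0 (n = 7), 2 (n = 10), 4 (n = 9), 8 (n = 10), 12 (n = 10) and 14 (n = 5). Pristane-SNF1 mice were sampled at weeks 2 (n = 9), 4 (n = 10), 8 (n = 8), 12 (n = 8) and 14 (n = 9), counted from the injection. The 95 arrays, Affymetrix HT MG-430 PM, give log2 expression after RMA normalization, so a difference of 1 is a 2-fold change. Each array is a different kidney sample, and the labels do not say which of the study's experiments a mouse came from, so a batch could not be tested.

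No value was below 2.21, the floor, and 19.6% of all values lay there, and the array medians ranged from 4.22 to 4.57. The proximal tubule list (8 genes measured) had a mean between 9.19 and 11.36 over the arrays, so these tubule transcripts were present in every sample. Of 7 hepatocyte markers measured, Serpina1a, Tat, Cps1 and Apoh lay at the floor on 72, 81, 84 and 90 of the 95 arrays, while Alb, Apoa2 and Fgb were above it on every array. In whole kidney, fewer cells of a type and less RNA per cell cannot be told apart.

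Of the 31 genes, 23 were above the floor on every array. Ugt2a3 and Ugt2b1 were at the floor on every array. The other 6, Gstm6, Gstp3, Mgst2, Ugt2a1, Ugt2b35 and Ugt2b5, were at the floor on some, from 2 arrays for Ugt2a1 to 92 for Gstm6. A value above the floor is not by itself detection. Ugt2a1 and Gstm3 had means of only 2.33 and 2.38 over all arrays. All 31 genes entered every count below, and no test was restricted to those above the floor. A gene was called changed at a Benjamini-Hochberg adjusted p under 0.05, over all 45037 probe sets, in the empirical Bayes test of limma on the mice of that week.

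At week 14 after pristane, 7 of 19 glutathione S-transferase genes and 2 of 12 Ugt genes were lower than in age-matched untreated kidneys. Ugt2b37, a glucuronosyltransferase, was 12.3-fold higher. Of the 31 genes, 9 fell (Gsta2, Gsta4, Gstk1, Gstm5, Gstm7, Gstp1, Mgst3, Ugt1a6a and Ugt1a9), 2 rose (Mgst1 and Ugt2b37) and 20 did not pass the test. Over all probe sets 3.73% were called lower and 4.57% higher, and over genes with 1 probe set each 4.8% and 6.97%. Among the falls, Gstm7, Gstk1, Gsta4 and Gsta2 exceeded 2-fold, against 0.744% of all probe sets lower by this rule. Ugt2b37 was the only rise over 2-fold, against 1.89% of all probe sets higher. The median difference of the 31 genes was -0.30 on the log2 scale, against 0 for all probe sets. Of the 23 genes above the floor on every array, 19 had a negative difference, among them Gstm3, which stayed close to the floor. The share with a negative difference was not counted over all genes.

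**Figure D1:**
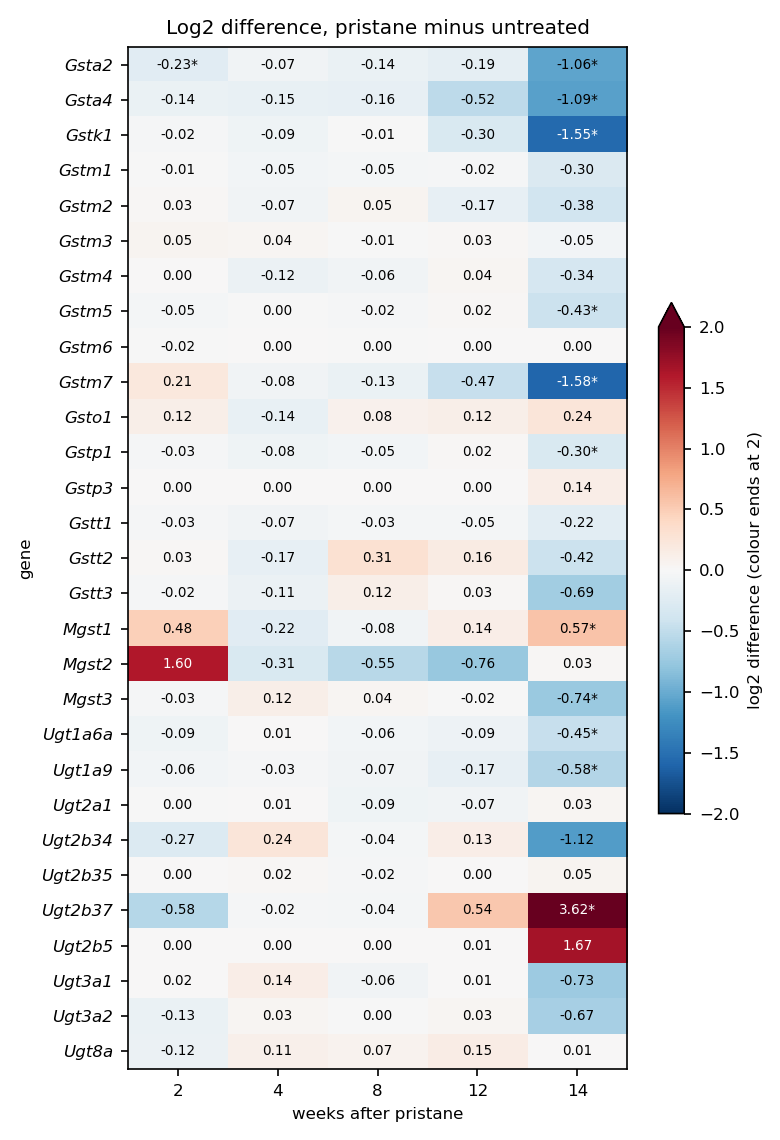
Log2 difference, pristane minus untreated, for the 29 genes above the floor on at least 1 array (rows) at 2, 4, 8, 12 and 14 weeks after pristane (columns). Blue is lower and red higher with pristane, the colour ends at 2, and a star marks an adjusted p under 0.05. The stars stand at week 14, for 9 falls and 2 rises, and at week 2 for Gsta2 alone.

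The alpha class enzymes conjugate products of lipid peroxidation and bind steroids and bilirubin. Gsta2 measured 13.09, 13.51, 13.47, 13.44 and 13.56 in the 5 untreated kidneys of week 14, and from 11.73 to 13.27 with a median of 12.22 in the 9 pristane kidneys. Pristane mice 1 and 2 (13.18 and 13.27) lay inside the untreated range and the other 7 lay below it. The difference was -1.06 (standard error 0.25, 2.09-fold lower, limma adjusted p = 0.0284). A second probe set of Gsta2 fell by 1.66 (limma adjusted p = 0.0185). The near-identical gene Gsta1 was not named on its own by any probe set used, and its transcripts may be measured with those of Gsta2, which was not tested.

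Gsta4, which acts on 4-hydroxynonenal, a toxic product of oxidized lipids, measured 10.65, 10.92, 11.06, 10.93 and 10.98 in untreated kidneys. In pristane kidneys it ranged from 9.35 to 10.83 with a median of 9.71, and 8 of 9 were below all untreated values. Only pristane mouse 2 reached the untreated range. It fell by 1.09 (standard error 0.21, limma adjusted p = 0.0135). Gsta4 had the smallest adjusted p of the 31 genes and alone passed in all 14 fits in which a single mouse was omitted.

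Gstk1, the kappa class enzyme of mitochondria and peroxisomes, measured 11.13, 11.38, 11.36, 11.40 and 10.996 in untreated kidneys. Pristane kidneys ranged from 8.74 to 11.02 with a median of 9.37. Again pristane mouse 2 alone lay inside the untreated range. Gstk1 fell by 1.55 (standard error 0.37, 2.94-fold lower, limma adjusted p = 0.0291).

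The mu class conjugates epoxides and other electrophiles, and its genes lie together in a cluster. Among 7 mu genes, Gstm7 and Gstm5 fell and the other 5 did not pass. Gstm7 measured 5.81, 5.97, 5.93, 5.59 and 5.38 in untreated kidneys and from 3.05 to 5.44 with a median of 3.98 in pristane kidneys. It fell by 1.58 (standard error 0.34, 2.99-fold lower, limma adjusted p = 0.0198), and 8 of 9 pristane kidneys were below all untreated values. Its second probe set was near the floor (mean 2.39) and differed by 0.05.

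Gstm5, a mu enzyme known from brain and testis, measured 11.38, 11.65, 11.43, 11.53 and 11.14 in untreated kidneys. In pristane kidneys it ranged from 10.82 to 11.32 with a median of 10.91, 6 of 9 lying below the untreated range. The fall was by 0.43 (standard error 0.11, 1.35-fold lower, limma adjusted p = 0.0329). Gstm1, a general conjugating enzyme of liver and kidney, differed by -0.30 (95% interval -0.51 to -0.08, limma adjusted p = 0.0829), and its probe set can detect related transcripts as well. Gstm2 and Gstm4 differed by -0.38 and -0.34 and did not pass, while Gstm3 and Gstm6 stayed at or near the floor.

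Gstp1, the pi class enzyme that also binds stress kinases, measured 11.25, 11.11, 11.08, 11.10 and 10.95 in untreated kidneys and from 10.56 to 11.10 with a median of 10.82 in pristane kidneys. It fell by 0.30 (standard error 0.08, 1.23-fold lower, limma adjusted p = 0.0394), the smallest fall that passed. With each array centred on its median, Gstp1 no longer passed, and it was lost in 11 of the 14 fits with a mouse omitted. Gstp3, a second pi gene, was at the floor in every untreated kidney of week 14 and above it in 5 of 9 pristane kidneys, with 2.74 the highest value. It differed by 0.14 and did not pass.

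The theta enzymes conjugate small halogenated compounds, and neither the 3 theta genes nor Gsto1 passed at week 14. Gstt3 differed by -0.69 (interval -1.17 to -0.21, limma adjusted p = 0.0721), Gstt2 by -0.42 and Gstt1 by -0.22. Gsto1, the omega class enzyme that reduces dehydroascorbate, differed by 0.24 (limma adjusted p = 0.261), and its second probe set by 0.33 (limma adjusted p = 0.0683). In 6 of 9 pristane kidneys Gsto1 was above all untreated values.

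The 3 microsomal genes had different values. Mgst3, which handles lipid peroxides, measured 10.51, 10.56, 10.54, 10.43 and 10.25 in untreated kidneys and from 9.14 to 10.46 with a median of 9.58 in pristane kidneys. It fell by 0.74 (standard error 0.19, 1.67-fold lower, limma adjusted p = 0.0329). Mgst1, an enzyme of endoplasmic reticulum and mitochondrial membranes, measured 9.69, 9.17, 9.26, 9.34 and 9.23 in untreated kidneys and from 9.28 to 10.27 with a median of 9.95 in pristane kidneys. It rose by 0.57 (standard error 0.16, 1.49-fold, limma adjusted p = 0.0437), and 7 of 9 pristane kidneys were above all untreated values. Mgst2, a leukotriene C4 synthesising enzyme, was at the floor in 5 of 5 untreated and 7 of 9 pristane kidneys.

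Transcripts of the adrenal gland, which lies against the kidney, varied between these samples, and Mgst1 and Mgst2 varied with them. Over deviations from the group means in all 95 kidneys, the mean of 9 adrenal genes correlated with Mgst1 at r = 0.80 and with Mgst2 at r = 0.75, a description over arrays that share a platform and a normalization. Perirenal fat, another tissue next to the kidney, had a mean of 5 genes that correlated with Mgst1 at r = 0.58 and with Mgst2 at r = 0.26, and ranged from 7.59 to 9.37 in untreated and from 5.47 to 8.38 in pristane kidneys of week 14. At week 14 the adrenal mean was between 3.67 and 3.95 in untreated and between 3.61 and 6.66 in pristane kidneys. Of the 9 pristane kidneys, mice 4, 5 and 6 had an adrenal mean of 6.66, 5.95 and 5.49 and Mgst1 at 10.27, 9.95 and 9.90. In mice 1, 2, 3, 7, 8 and 9 the adrenal mean was 3.73, 3.69, 3.61, 3.82, 3.78 and 3.65, and Mgst1 was 9.74, 9.28, 10.26, 9.97, 9.66 and 10.17. The values of mice 2 and 8 were within the untreated range of 9.17 to 9.69 and those of the other 7 mice above it. With the adrenal mean as a covariate, Mgst1 differed by 0.51 (limma adjusted p = 0.129), and of the 11 calls at week 14 the 1 that passed was Gsta4. The called genes other than Mgst1 correlated only weakly with the adrenal mean, from -0.28 (Gstm5) to 0.14 (Ugt2b37) in the 95 kidneys. Why their calls were lost was not tested.

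**Figure D2:**
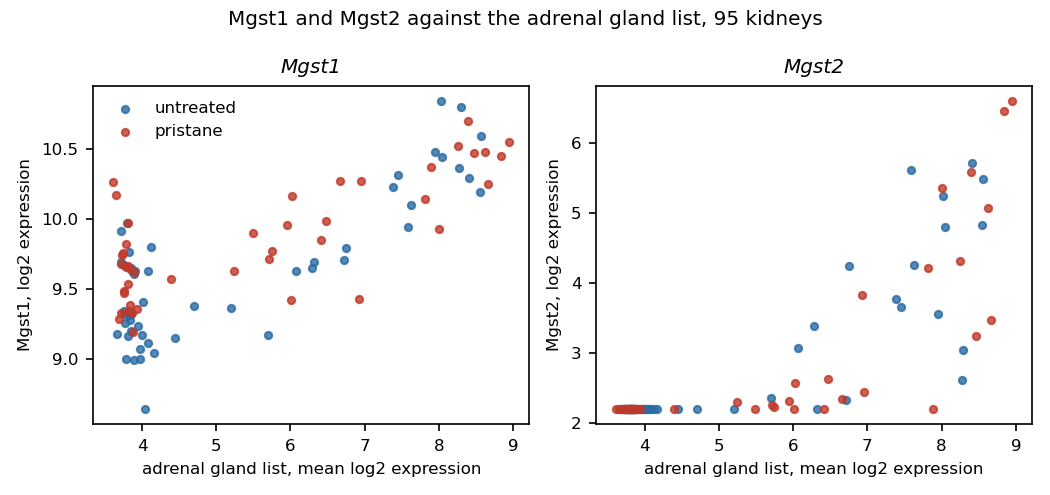
Mgst1 (left) and Mgst2 (right), log2 expression on the vertical axis, against the mean log2 expression of 9 adrenal gland genes on the horizontal axis, 1 point per kidney for all 95 kidneys, blue untreated and red pristane. Mgst2 lies at the floor of 2.21 in kidneys with a low adrenal mean, and both genes tend to be higher where the adrenal mean is high. Some kidneys depart from this, such as pristane mouse 4 of week 12, with an adrenal mean of 7.89 and Mgst2 at the floor.

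The antioxidant response element is a promoter sequence bound by Nrf2, a factor that induces several glutathione S-transferases. Its core, TGACNNNGC, was searched on both strands in RefSeq promoter windows (GRCm38.p6, 250 bases before to 50 after a start site), of which 28 of the 31 genes had at least 1. It was in 3 of the 35 windows of these genes, those of Gstm5, Gstm7 (1 of its windows) and Mgst1, and in 12.4% of all 32851 windows. The windows of Gstm5, which fell, and Mgst1, which rose, are printed because both hold the core while the 2 genes differed in direction at week 14. Capitals mark the core, which starts 42 bases before the start site on the plus strand of Gstm5 and 56 bases before it, on the minus strand of the window, in Mgst1. The windows are chr3:107895604-107895903 for Gstm5 and chr6:138140277-138140576 for Mgst1, both on the plus strand of the genome.
Gstm5: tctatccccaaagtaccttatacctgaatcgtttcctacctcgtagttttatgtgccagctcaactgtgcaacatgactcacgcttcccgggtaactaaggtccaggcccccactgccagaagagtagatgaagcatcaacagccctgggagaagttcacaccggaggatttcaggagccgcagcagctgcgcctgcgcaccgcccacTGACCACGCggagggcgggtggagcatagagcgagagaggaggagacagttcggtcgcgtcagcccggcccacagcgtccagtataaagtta
Mgst1: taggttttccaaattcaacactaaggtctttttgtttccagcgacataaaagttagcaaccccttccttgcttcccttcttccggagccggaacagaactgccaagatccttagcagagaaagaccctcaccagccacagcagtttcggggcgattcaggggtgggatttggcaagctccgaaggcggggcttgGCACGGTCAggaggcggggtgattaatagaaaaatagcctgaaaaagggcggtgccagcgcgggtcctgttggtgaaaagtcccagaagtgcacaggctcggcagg

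The xenobiotic response element core GCGTG is bound by the aryl hydrocarbon receptor. It was in 8 of the 35 windows of these genes and in 32.4% of all windows. The 8 belonged to 7 genes (Gsta2, Gstm1, Gstm5, Gstp1, Gstp3, Mgst3 and Ugt8a). The Hnf1 core GTTAATNAT was in 1 of the 35 windows, that of Ugt1a9, against 0.801% of all windows. The Hnf4 site CAAAGTCCA was in none, against 0.475%. A match is a description of the letters and not of a bound site.

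Ugt1a6a and Ugt1a9 are made from 1 locus, in which different first exons are joined to shared last exons, and their enzymes glucuronidate phenols and drugs. Probes in the shared end cannot tell them apart, and their deviations from the group means correlated at r = 0.83 over the 95 arrays. Ugt1a9 measured 12.40, 12.66, 12.68, 12.67 and 12.92 in untreated kidneys of week 14 and from 11.76 to 12.53 with a median of 11.95 in pristane kidneys. It fell by 0.58 (standard error 0.14, 1.497-fold lower, limma adjusted p = 0.032), with 7 of 9 pristane kidneys below all untreated values. Ugt1a6a measured 13.10, 13.16, 13.32, 13.26 and 13.43 in untreated kidneys and from 12.50 to 13.18 with a median of 12.78 in pristane kidneys. It fell by 0.45 (limma adjusted p = 0.0469), and its second probe set by 0.82 (limma adjusted p = 0.0307).

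**Figure D3:**
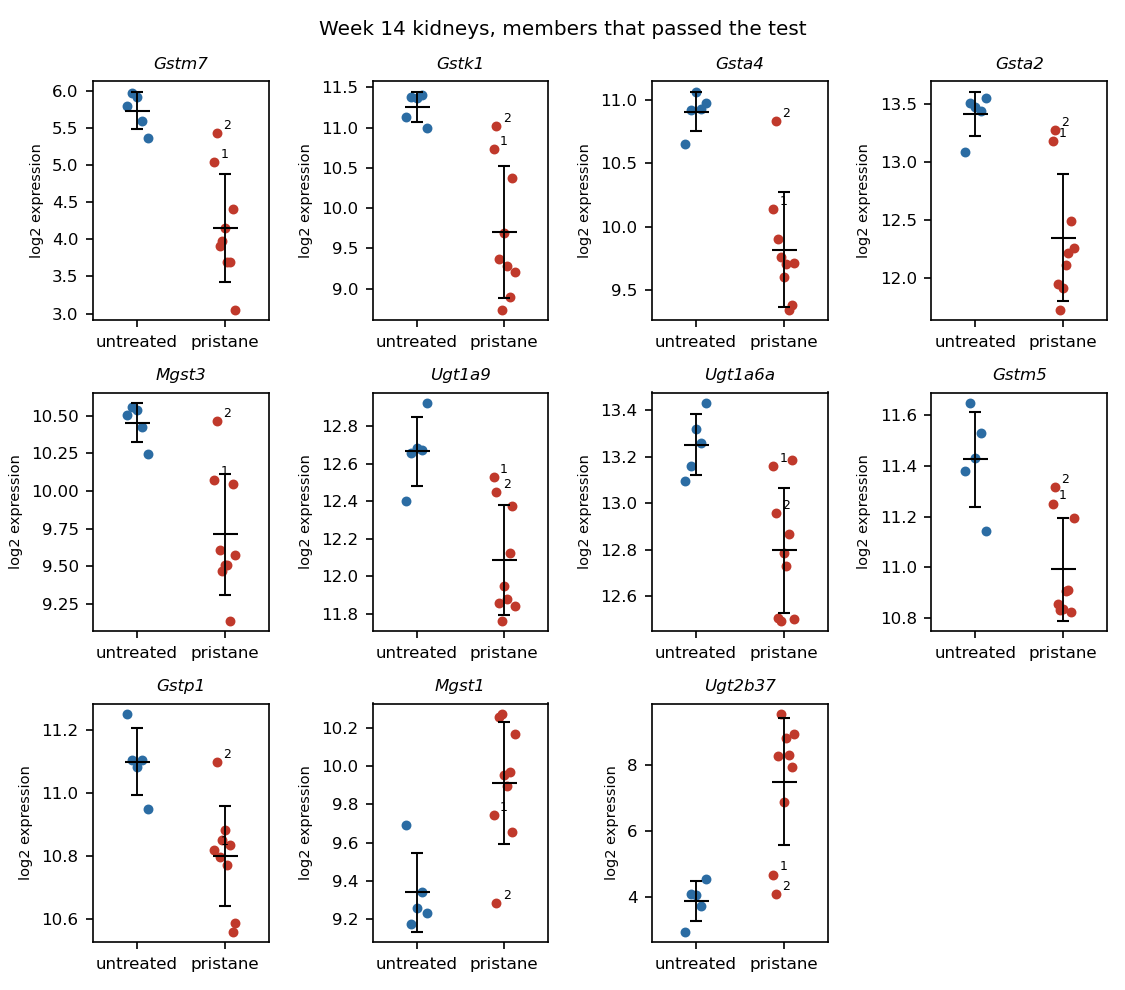
Log2 expression (vertical axis, scaled for each gene) of the 11 genes that passed at week 14 in 5 untreated (blue) and 9 pristane (red) kidneys. Points are mice, bars the mean and SD, and the digits mark pristane mice 1 and 2, which lay nearest to the untreated kidneys for most of these genes.

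The Ugt2 enzymes glucuronidate steroids, bile acids and fatty acids. Ugt2b37 had the largest difference of all 31 genes. It measured 2.97, 4.09, 4.09, 3.74 and 4.57 in untreated kidneys of week 14. In pristane mice 1 to 9 it measured 4.69, 4.11, 8.28, 9.54, 6.90, 8.82, 8.32, 7.96 and 8.94. Mouse 2 was within the untreated range, mouse 1 just above it, and the other 7 were far above it. Ugt2b37 rose by 3.62 (standard error 0.87, 95% interval 1.72 to 5.51, 12.3-fold, limma adjusted p = 0.0304).

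Ugt2b5 was at the floor of 2.21 in 5 of 5 untreated kidneys and in pristane mice 1 and 2. In pristane mice 3 to 9 it measured 4.62, 5.40, 2.50, 4.09, 5.13, 4.26 and 4.50, so the same 7 kidneys were high for both genes. The difference was 1.67, which understates a change from below the floor, and it did not pass (limma adjusted p = 0.082). Ugt2b34 went the other way in value, measuring 10.51, 10.72, 10.73, 10.65 and 10.37 in untreated kidneys and from 8.52 to 10.79 with a median of 9.15 in pristane kidneys. Its difference of -1.12 (interval -1.88 to -0.35) did not pass (limma adjusted p = 0.0684), although 8 of 9 pristane kidneys were below all untreated values. Ugt2a1 and Ugt2b35 stayed near the floor. The hepatocyte list had a mean of 3.59 to 3.85 in untreated and 3.70 to 4.19 in pristane kidneys of week 14. Of its 7 genes measured, 1 was called higher and 2 lower at that week. Fgb had a mean of 8.02 after pristane and 4.78 without it. Alb and Apoa2 went the other way, with 5.00 and 5.14 after pristane and 6.10 and 6.335 without it.

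Since Ugt2b37 and Ugt2b5 were high in the same kidneys and Ugt2b34 was not, their promoter windows are printed together. In a global alignment the windows of Ugt2b37 and Ugt2b5 were identical at 82.7% of bases, against 62.3% and 61.3% between each of them and Ugt2b34 and 56.3% to 67.7% over the other pairs of the 7 Ugt2 genes. Capitals mark the longest run shared by Ugt2b37 and Ugt2b5, 72 bases that no other window of any gene in the table held. It begins 85 bases before the start site in Ugt2b37 and 68 bases before it in Ugt2b5. The windows are chr5:87254739-87255038, chr5:87140291-87140590 and chr5:86906888-86907187, all on the minus strand and written in the direction of the gene. Whether a probe for one of these genes also detects another was not tested.
Ugt2b37: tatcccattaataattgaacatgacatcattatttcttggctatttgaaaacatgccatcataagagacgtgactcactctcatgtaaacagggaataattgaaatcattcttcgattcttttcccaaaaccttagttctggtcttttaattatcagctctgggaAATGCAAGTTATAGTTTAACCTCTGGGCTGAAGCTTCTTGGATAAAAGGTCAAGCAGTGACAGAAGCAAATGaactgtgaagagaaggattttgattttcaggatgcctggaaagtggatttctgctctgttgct
Ugt2b5: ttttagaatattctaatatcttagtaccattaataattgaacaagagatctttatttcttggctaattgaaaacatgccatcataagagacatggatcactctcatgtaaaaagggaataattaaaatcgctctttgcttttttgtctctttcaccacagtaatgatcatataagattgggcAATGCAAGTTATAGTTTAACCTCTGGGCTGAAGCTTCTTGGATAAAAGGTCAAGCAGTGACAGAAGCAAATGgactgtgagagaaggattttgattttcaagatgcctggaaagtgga
Ugt2b34: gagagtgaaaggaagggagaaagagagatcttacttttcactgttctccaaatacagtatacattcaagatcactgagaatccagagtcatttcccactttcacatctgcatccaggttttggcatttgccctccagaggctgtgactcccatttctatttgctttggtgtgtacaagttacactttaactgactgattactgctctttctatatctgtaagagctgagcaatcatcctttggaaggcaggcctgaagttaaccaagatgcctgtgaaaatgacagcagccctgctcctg

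**Figure D4:**
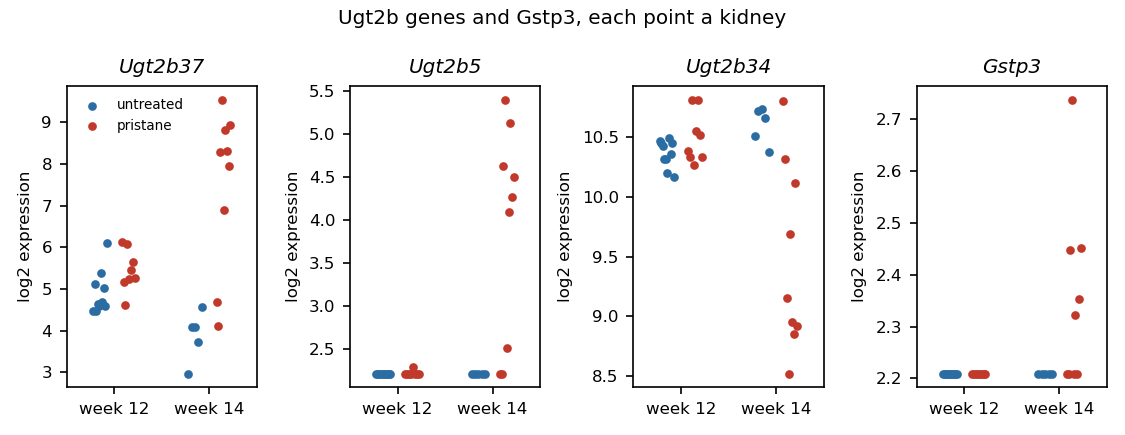
Log2 expression (vertical axis, scaled for each gene) of Ugt2b37, Ugt2b5, Ugt2b34 and Gstp3 at weeks 12 and 14 (horizontal axis), each point a kidney, blue untreated and red pristane. At week 14, 7 of 9 pristane kidneys are above all untreated kidneys for Ugt2b5 and 8 of 9 for Ugt2b37, and 8 of 9 are below them for Ugt2b34.

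The 2 Ugt3 genes use other UDP-sugars than glucuronic acid. Ugt3a2 measured 13.10, 13.25, 13.22, 13.37 and 13.19 in untreated kidneys and from 11.75 to 13.17 with a median of 12.42 in pristane kidneys. Its difference of -0.67 did not pass (limma adjusted p = 0.0628), nor did that of Ugt3a1 (-0.73, limma adjusted p = 0.166). Ugt8a, which makes galactosylceramide, differed by 0.01 (interval -0.43 to 0.45), and the groups covered the same range.

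The 9 pristane kidneys of week 14 were not alike. In mice 3 to 7, all 9 genes that fell were below every untreated kidney, and in mice 8 and 9 it was 8 of 9. In mouse 1 it was 5 and in mouse 2 it was 1. These 9 genes were chosen by the test on the same mice, so low values in most mice follow from that choice. The share of all genes below every untreated kidney was not counted for each mouse. Mice 1 and 2 also had the proximal tubule mean at 11.12 and 11.21, within the 11.09 to 11.32 of untreated kidneys, while mice 3 to 9 had 9.19 to 10.53. Of the 8 proximal tubule genes 3 were called lower at week 14 and none higher. The macrophage mean was 6.71 and 6.85 in mice 1 and 2, 8.10 to 8.76 in mice 3 to 9 and 4.93 to 5.58 in untreated kidneys, and 9 of 10 macrophage genes were called higher. The distal convoluted tubule mean was 10.33 to 10.81 in untreated and 7.59 to 10.46 in pristane kidneys, with 3 of 4 genes called lower. The fibroblast and matrix mean was 5.89 to 6.39 and 6.95 to 8.63, with 4 of 5 genes called higher. The part of these cell types in the falls and rises was not tested.

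The count of 11 depended on single mice. Leaving out untreated mouse 1, 2, 3, 4 or 5 of week 14 gave 5, 1, 1, 1 and 3 genes. Leaving out pristane mouse 3, 4, 5, 6, 7 or 9 gave 2, 4, 5, 2, 4 and 3, whereas 15, 16 and 11 passed without mouse 1, 2 or 8. The differences themselves kept their direction in each of these fits. Ugt2b37, for example, ranged from 3.36 to 4.04, and Gstk1 from -1.72 to -1.43.

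Across all 95 kidneys, after each group mean was removed, the genes most like Gstk1 were Ugt3a2 (r = 0.78), Gsta2 (0.69) and Mgst3 (0.69). Those most like Gstm7 were Gstk1 (0.57), Ugt3a1 (0.48) and Gsta4 (0.47). For Ugt2b37 they were Ugt2b5 (0.75), Gstp3 (0.56) and Mgst1 (0.19). Without the 9 pristane kidneys of week 14, over 86 kidneys, the values were 0.35, 0.42 and 0.54 for Gstk1, 0.37, 0.27 and 0.37 for Gstm7 and 0.05, 0.08 and 0.07 for Ugt2b37. Ugt2b5 and Gstp3 were at the floor on 84 and 89 of the 95 arrays. Nearly constant values give a low correlation, so the 86 kidneys cannot show whether either gene varies with Ugt2b37. In all 95 kidneys the proximal tubule mean correlated with Gstk1 at 0.85, Ugt3a2 at 0.85 and Ugt2b37 at -0.76, and in 86 kidneys at 0.49, 0.45 and -0.24. The other genes that fell at week 14 varied in this. In 95 kidneys Gsta2, Ugt1a9, Ugt1a6a and Mgst3 had 0.755, 0.60, 0.57 and 0.54. Gstm7, Gstm5, Gsta4 and Gstp1 had 0.47, 0.38, 0.33 and 0.13. In 86 kidneys these genes, in the same order, had 0.61, 0.42, 0.45, 0.31, 0.13, 0.425, 0.11 and 0.04. These are descriptions over arrays that share a platform and a normalization.

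At earlier weeks few genes differed. At week 2 Gsta2 was lower, the only gene of the 31 to pass, against 0.0178% of all probe sets called lower. It ranged from 12.97 to 13.31 with a median of 13.22 in untreated and from 12.83 to 13.09 with a median of 12.96 in pristane kidneys, and 5 of 9 pristane kidneys were below all untreated values. The fall was by 0.23 (standard error 0.04, 1.18-fold lower, limma adjusted p = 0.0245). It was lost, at adjusted p values up to 0.0578, when untreated mouse 6, 7, 8 or 9 was omitted, and likewise for pristane mouse 1, 4, 6 or 7. With the adrenal mean as a covariate the difference was -0.19 (limma adjusted p = 0.46), and the adrenal mean was 7.58 ± 1.62 (SD, n = 9) in pristane and 5.19 ± 1.78 (SD, n = 10) in untreated kidneys of that week.

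At week 2, 6 of the 31 genes had an unadjusted p under 0.05, as had 7.15% of all probe sets, and 5 of these did not pass after adjustment. Mgst2 was at the floor in 7 of 10 untreated and 1 of 9 pristane kidneys of week 2, reaching 6.59, and differed by 1.60 (limma adjusted p = 0.567). Mgst1 differed by 0.48 (limma adjusted p = 0.49). Both are the genes that varied with the adrenal mean. Ugt2b37 ranged from 3.12 to 4.60 in pristane and from 4.18 to 5.05 in untreated kidneys, a difference of -0.58 (limma adjusted p = 0.326).

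At weeks 4, 8 and 12 none of the 31 genes passed in limma, and 2, 1 and 4 had an unadjusted p under 0.05, against 4.88%, 3.63% and 6.17% of all probe sets. Over all probe sets 0.138%, 0.0866% and 0.0244% were called at these weeks. At week 12 Gsta4 ranged from 9.61 to 10.63 with a median of 10.22 in pristane and from 10.16 to 11.001 with a median of 10.81 in untreated kidneys. The difference was -0.52 (interval -0.81 to -0.24, limma adjusted p = 0.366). Gstm7, Gstk1 and Ugt2b37 differed by -0.47, -0.30 and 0.54 at that week and did not pass. Without untreated mouse 10 of week 12, 1 gene passed. Ugt2b37 in that kidney was 6.10, the highest of the untreated kidneys of week 12, against 6.12 as the highest with pristane. The macrophage mean reached 8.60 in untreated and 7.39 in pristane kidneys of that week. Whether a control kidney with such values changed the calls at week 12 was not tested further. At week 8 Gstt2 was above all untreated values in 7 of 8 pristane kidneys, with a difference of 0.31 (limma adjusted p = 0.455).

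**Figure D5:**
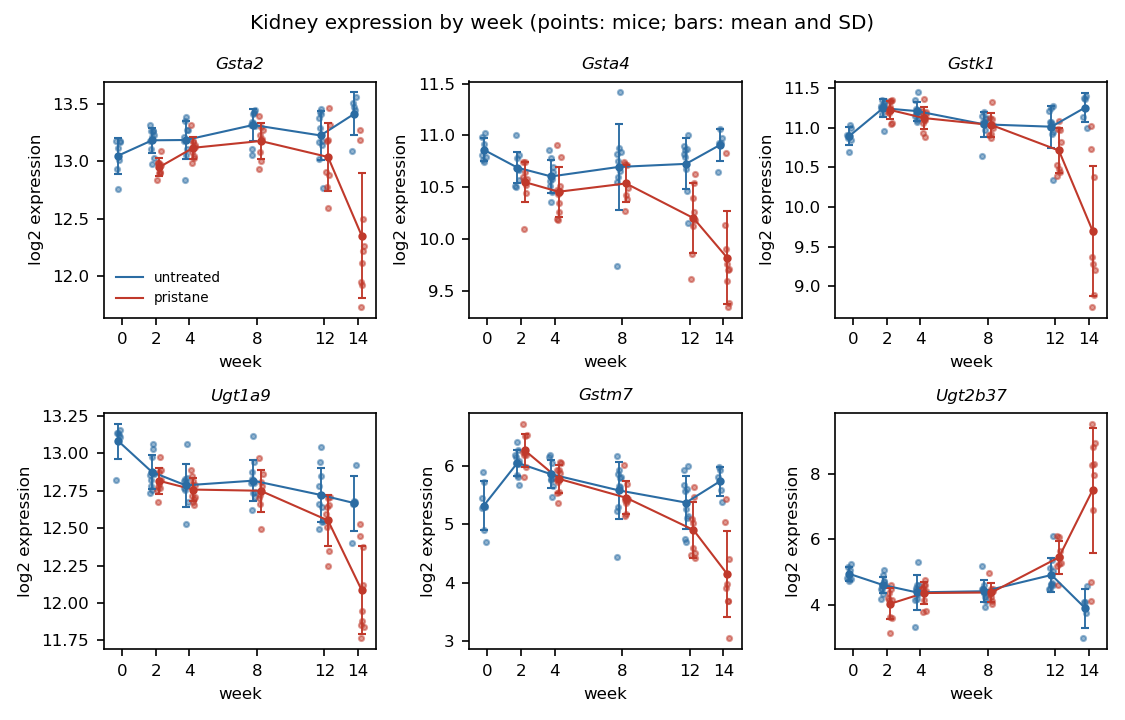
Log2 expression (vertical axis, scaled for each gene) of Gsta2, Gsta4, Gstk1, Ugt1a9, Gstm7 and Ugt2b37 by week (horizontal axis) in untreated (blue) and pristane (red) kidneys, points being mice and bars the mean and SD. The group means lie close together at weeks 2 to 8 and stand apart at week 14, where Ugt2b37 is higher with pristane and the other 5 are lower.

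Whether the effect of pristane differed between weeks 14 and 12 was tested as an interaction in limma. None of the 31 genes passed, nor did any probe set (0%), while 19 of the 31 had an unadjusted p under 0.05, 16 toward lower and 3 toward higher at week 14, against 15.8% of all probe sets in either direction. The smallest adjusted p was 0.0716, for Mgst3 (difference of effects -0.73) and Ugt2b34 (-1.25). Ugt2b37 had a difference of effects of 3.08 (interval 1.43 to 4.73, limma adjusted p = 0.072). Without pristane mouse 1 of week 14, 8 genes passed, and without mouse 2, 13 genes passed.

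Untreated kidneys also changed between week 0 and week 14, with 7 genes higher, 3 lower and 21 not passing in limma. Over all probe sets 8.78% were called higher and 4.52% lower. Gstt2, a theta enzyme, rose by 0.75 (limma adjusted p = 0.00388), from 9.45 ± 0.13 (SD, n = 7) to 10.20 ± 0.29 (SD, n = 5), and all 5 kidneys of week 14 were above those of week 0. Gstm5 rose by 0.57, Ugt2b34 by 0.49, Mgst3 by 0.42, Gsta2 by 0.36, Gstk1 by 0.36 and Gstp1 by 0.34. Ugt2b37 fell by 1.05 (2.07-fold lower, limma adjusted p = 0.0159), Ugt1a9 by 0.41 and Ugt1a6a by 0.31. With each array centred on its median, the median of all probe sets in this comparison moved to 0.10 and the split was 15 higher and 3 lower. Weeks may be separate collections, which cannot be told apart from time here.

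The untreated mice of week 14 serve in this comparison and in that of pristane at week 14. Gstk1, for example, had a mean of 10.89 at week 0 and 11.25 at week 14 in untreated kidneys and 9.70 at week 14 after pristane, and Ugt2b37 had 4.94, 3.89 and 7.51. Against the untreated mice of all weeks in place of week 14 alone, 4 genes were higher and 15 lower at week 14 after pristane.

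Some genes of the lists that supply and follow these enzymes passed at week 14. Their counts stand beside 4.8% of all genes lower and 6.97% higher. In the glutathione supply list 2 of 9 genes fell and none rose, among them Slc3a1, a cystine transporter subunit (-0.56, limma adjusted p = 0.0438), and Oplah, which recycles 5-oxoproline (-0.51, limma adjusted p = 0.0169). Gclc and Gclm, which make up the rate-limiting enzyme of glutathione synthesis, differed by -0.29 and -0.22 and did not pass. Of 6 glutathione peroxidases, Gpx6 (-1.67) and Gpx1 (-0.28) fell and Gpx8 rose by 0.56 (limma adjusted p = 0.0172). In the mercapturate pathway, which turns glutathione conjugates into urinary products, 1 of 8 genes fell, the acetyltransferase Nat8 (-0.95, limma adjusted p = 0.0381). The median difference of these 8 was -0.98, and the anion transporters Slc22a6 and Slc22a8 (-0.84 and -1.42) did not pass.

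In the list for UDP-glucuronate supply and breakdown, 1 of 8 genes rose and 1 fell. Gusb, the lysosomal enzyme that removes glucuronic acid, rose by 1.13 (2.19-fold, limma adjusted p = 0.00592). Ugdh, which makes UDP-glucuronic acid, fell by 0.24 (limma adjusted p = 0.0191). None of 11 other conjugating enzymes passed in limma, and 2 of them had an unadjusted p under 0.05, both lower. Of 8 efflux transporters 3 fell and none rose, with Abcb1b at -0.999 and Abcg2 at -0.54 (limma adjusted p = 0.0316 and 0.0406).

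Among 10 Nrf2 target genes 2 rose and 2 fell. Hmox1, which breaks down heme, rose by 1.16 and Akr1b8, an aldehyde reductase, by 1.40 (limma adjusted p = 0.0327 and 0.0415), whereas Osgin1 and Nqo1, a quinone reductase, fell by 0.91 and 0.76 (limma adjusted p = 0.0117 and 0.017). Of 9 regulators Ppara, a receptor for fatty acids, fell by 1.35 (limma adjusted p = 0.0175), and none rose. Nfe2l2, which encodes Nrf2, differed by 0.21 (limma adjusted p = 0.264) and Hnf4a by -0.26 (limma adjusted p = 0.095). Of 5 relatives outside the family names 2 rose and 3 did not pass, with a median difference of 0.15. Hpgds, a prostaglandin D synthase of the sigma class of glutathione S-transferases, rose by 1.79 and Alox5ap by 2.16 (limma adjusted p = 0.0202 and 0.00703), both genes of leukocytes. None of the genes of these lists passed in limma at weeks 2 to 12 or in the interaction, where at most 4 and 6 genes of a list had an unadjusted p under 0.05.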

How the data were processed

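The authors deposited log2 values, obtained by RMA normalization, for 45141 probe sets on 95 arrays. RMA, Partek and limma are the tools named in the submitters' notes and methods, and a genome build is not given in the sources used here. RMA summarises the probes of a set and as usually run aligns the arrays to 1 distribution, which can hide a shift common to all genes. No array was identical to another (highest correlation 0.998), and the number of mice limits the precision.

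After 104 control probe sets were left out, the deposited log2 values of 45037 probe sets were compared in R 4.3.3 with limma 3.58.1 (lmFit and eBayes, two-sided, Benjamini-Hochberg over all probe sets). Each week was fitted on its own mice. The interaction took the 4 groups of weeks 12 and 14. Intervals have a 95% level. The script was tested on simulated data.

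Genes were named from GEO's platform annotation, which lists 29449 of the probe sets, and 31 of 31 symbols equalled the current RefSeq symbol. The genes and lists were chosen with earlier results of these data known. Genes named were those that passed, the highest in each class and up to 2 rises and 2 falls per pathway list. The rule as planned was up to 2 per list and comparison, which the glutathione peroxidase and Nrf2 target lists exceeded. Slc22a6, Slc22a8, Gclc, Gclm, Nfe2l2, Hnf4a and the members outside this rule, such as Ugt2b5, Gstp3, Gstt3, Mgst2 and Ugt3a1, were named after their values were seen. Promoter windows came from RefSeq (GRCm38.p6) and were aligned with Biopython 1.88. None was used for Gsta4, Gstt2 or Ugt3a2.

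The mice were not treated as pairs by their replicate numbers. Over the 5000 probe sets of highest variance, same-numbered mice correlated between -0.538 and 0.588, and at no week did all pairs exceed 0.1. In 2 of 5 pairs at week 14 and 1 of 9 at week 4, the pristane mouse correlated best with its own number. At weeks 2, 8 and 12 none did. This check cannot exclude a batch shared by number. The labels give separate samples and do not say more about the animals, so p-values measure the spread between these samples. Alternatives were median centring, quantile normalization, a filter at the 40th percentile, all groups in 1 fit, a trended and robust fit, array weights, the replicate number as a block, stricter thresholds, the mean over a gene's probe sets, all untreated mice as controls and each mouse left out. The adrenal covariate was chosen after seeing the data.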

Additional observations from a re-analysis of the deposited data

Results flagged for a closer look

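In the 11 genes that passed at week 14, 121 groups of values were searched for a mouse far from the others of its group, and 13 were found. Chance marks about 1 in 20 groups. Untreated mouse 2 of week 8 was low for 4 genes, with Gsta4 at 9.74 (others 10.55 to 11.42), Gstk1 at 10.64 (10.97 to 11.19), Gstp1 at 10.51 (10.86 to 11.16) and Mgst3 at 9.70 (10.15 to 10.51). Untreated mouse 10 of week 12 was low for Gstk1 at 10.35 (10.93 to 11.27) and Gstp1 at 10.56 (10.82 to 11.08). In untreated mouse 1 of week 14 Gsta2 was low at 13.09 (13.44 to 13.56).

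The others were single values. Gstk1 was 10.96 in untreated mouse 7 of week 2 (others 11.18 to 11.35), and Gsta4 was 10.10 in pristane mouse 4 of week 2 (10.45 to 10.74). In untreated kidneys of week 0, Gstm5 was 10.49 in mouse 5 (10.81 to 11.06), Ugt1a6a was 13.63 in mouse 5 (13.53 to 13.57) and Ugt1a9 was 12.82 in mouse 1 (13.09 to 13.16). Mgst1 was high at 10.37 in pristane mouse 4 of week 12 (9.33 to 9.82), the kidney with the highest adrenal mean of its group, 7.89 (others 3.72 to 6.01).

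For Ugt2b37, every pristane kidney was above the untreated mean at week 14, with a mean difference of 3.62, and below it at week 2, with a mean difference of -0.58. The difference between these weeks was not tested.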

How the results depend on the processing

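None of the calls of single genes changed direction under the alternatives. Genes that did not pass and pathway genes were not followed through them. The count of 11 genes at week 14 was 20 with all groups in 1 fit, 19 with all untreated mice as controls, 5 when a 2-fold change was also asked, 1 with the adrenal covariate, 0 at an adjusted p of 0.01 and 0 with the replicate number as a block. In that block fit pristane mice 6 to 9 have no partner and do not contribute, and 14 genes had an unadjusted p under 0.05. Leaving out 1 mouse gave counts of 1 to 16.

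The count of 1 at week 2 was 4 with all untreated mice as controls and 0 with all groups in 1 fit, the replicate block, an adjusted p of 0.01, a 2-fold change or the adrenal covariate, and 0 to 1 without 1 mouse. The count of 0 at week 12 was 1 with all groups in 1 fit, 6 with all untreated mice and 0 to 1 without 1 mouse. At weeks 4 and 8 it was 0 in every fit without 1 mouse. For the interaction, 0 became 7 with the filter on low values, 17 with all groups in 1 fit, 9 with array weights and 0 to 13 without 1 mouse. For untreated kidneys of week 14 against week 0, 10 became 18 after centring, 3 with the replicate block, 5 at an adjusted p of 0.01, 1 with a 2-fold change and 7 to 11 without 1 mouse. The cause of these changes was not tested, apart from the stricter rules, which can only lower a count. The replicate block changed no other count.

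Genes at the floor give only a lower bound of a rise, and 10 of the 11 calls at week 14 failed in at least 3 of the 14 fits without 1 mouse.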
